A study of Rattus norvegicus with 12 samples.

Results

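To describe what still separated operated rats given electroacupuncture from unoperated rats, circRNA counts of the 3 HT+EA libraries were compared with those of the 3 NC libraries, 6 of the 12 libraries of the circRNA series. Libraries were assigned to these groups by their labels alone, and none of the compared libraries came from an operated rat without electroacupuncture. All rats were male Sprague–Dawley rats, 7 weeks old when purchased, and the tissue was the hypothalamic nucleus that the study abbreviates as PVN, labelled as brain. Normal control rats (NC) were not operated and were held in the same restraint belt for the same time. HT+EA rats had about 20% of the left liver lobe removed under isoflurane and received electroacupuncture, a weak current passed between needles, at the ST 36 and SP 6 points for 30 min, 24 h before surgery and again right after it, awake and restrained. Tissue was taken 24 h after the last session. The HT rats were operated without needles, and the HT+SEA rats were operated and had needles without current. Values of those 2 groups are set beside the results, with 3 libraries each. NC and HT+EA differ in anaesthesia, surgery, needling and current at once, so the parts of these in a difference cannot be told apart. According to the methods the samples of different assays came from different rats of 1 batch, and the labels do not say that each library was 1 rat, so the p-values measure the spread between these libraries.

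Circular RNAs are made when the splicing machinery joins the end of an exon to the start of an exon that lies before it, which leaves a closed loop without free ends. Loops of this kind resist exonucleases, accumulate in long-lived cells such as neurons and are rich in brain. Some of them bind miRNAs or proteins, and for most no role is known. The paraventricular hypothalamus holds the neurons that release corticotropin-releasing hormone, the first step of the pituitary and adrenal response to surgery and other stress. The table names circRNAs by running identifiers and pairs none with a host gene, a position or a sequence. Markers of the PVN and pathways were therefore not analysed here, and the circRNAs are grouped by how their counts behaved. A lower count in such bulk tissue can come from fewer cells of a type or from less RNA per cell, which cannot be told apart.

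The table held 21914 circRNAs, of which 19735 were listed in at least 1 of the 6 libraries and 5786 in all 6. In NC and HT+EA together 13497 (68.4%) of those 19735 were listed in both groups, 2672 in NC alone and 3566 in HT+EA alone. NC libraries held 225551, 230559 and 259654 counts and HT+EA libraries 214475, 360524 and 216431, so that HT+EA replicate 2 was the deepest of the 6. The mean totals, 238588 ± 18415 (SD, n = 3) for NC against 263810 ± 83762 (SD, n = 3) for HT+EA, did not differ beyond the spread (two-sided exact permutation test, p = 1, smallest possible p 0.1). An NC library listed 11428 ± 445 circRNAs (SD, n = 3) and an HT+EA library 11961 ± 1755 (SD, n = 3) (exact permutation test, p = 0.9). With every library thinned to 214475 counts the means were 11105 ± 276 (SD, n = 3) and 11302 ± 692 (SD, n = 3), again without a difference beyond the spread (exact permutation test, p = 0.8). Each of these p-values was 1 after adjustment over 4 tests. The higher HT+EA means rested on HT+EA replicate 2, without which the difference from NC was -23135 counts and -459 circRNAs listed.

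Few circRNAs separated HT+EA from NC, and in edgeR no circRNA did so after adjustment. Of 4838 circRNAs with enough counts to be tested, 120 passed an unadjusted p below 0.05 in edgeR's quasi-likelihood test, a background share of 2.48%, below the nominal 5% of that threshold. Among them 54 (1.12% of those tested) were higher in HT+EA and 66 (1.36%) were lower. At a Benjamini-Hochberg adjusted p below 0.05 edgeR called 0 circRNAs, with a smallest adjusted p of 0.9997, limma-voom called 0 and DESeq2 called 1. At the unadjusted threshold DESeq2 called 65 and limma-voom 236 of the same 4838, so the share called depended on the tool. In 232 tested circRNAs (4.8%) all 3 HT+EA libraries lay above every NC library in CPM, the count scaled to a common library total, and in 246 (5.08%) all lay below. Of the 20 ways to choose which 3 of 6 libraries rank highest, 1 puts all 3 HT+EA libraries on top. Of the 120 circRNAs called, 95 had groups that did not overlap, 45 of them higher and 50 lower. Overlap and p come from the same counts, so the 95 are no separate support.

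The calls were spread evenly over the range of abundance. Divided into 4 equal classes by mean CPM, the tested circRNAs gave 31, 30, 32 and 27 calls from the lowest to the highest class. What changed with abundance was the precision. The median standard error of the log2 fold change fell from 0.71 in the lowest class to 0.25 in the highest. In the lowest class 7 circRNAs (0.579%) had a 95% interval that stayed within a 2-fold change in either direction, against 957 (79.1%) in the highest class. Over all tested circRNAs 1506 (31.1%) had such an interval, and 341 had one within 1.5-fold. A 2-fold difference therefore stays inside the interval for most circRNAs of low count, and their lack of a call does not show that the groups were alike.

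**Figure D1:**
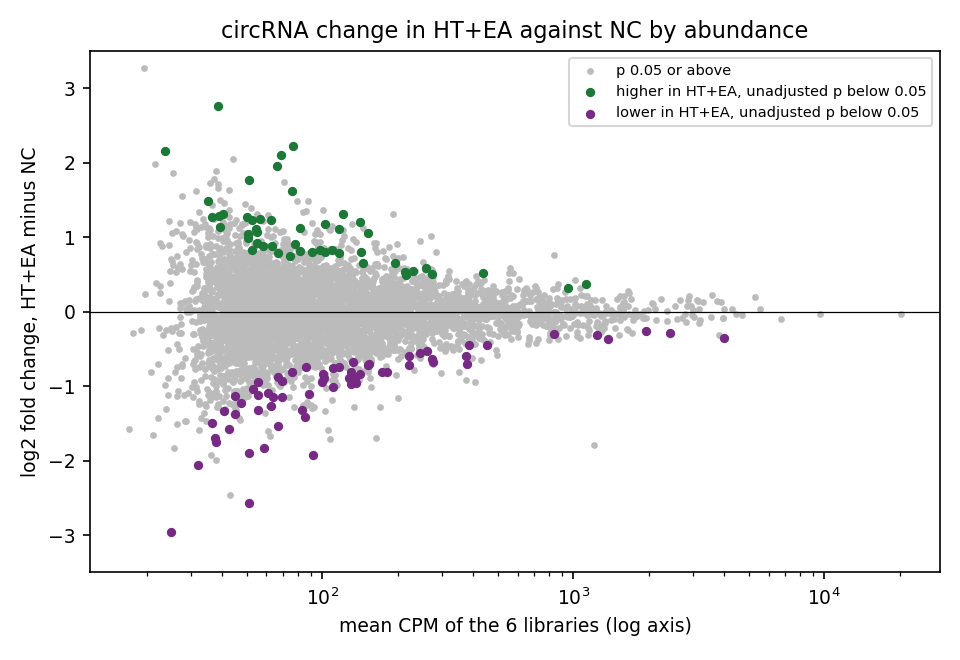
Log2 fold change of HT+EA over NC (vertical axis) against the mean CPM of the 6 libraries (horizontal, log axis). Each point is 1 tested circRNA with counts in both groups. Of the 54 higher (green) and 66 lower (purple) circRNAs at unadjusted p below 0.05, those drawn lie along the whole range. The points narrow towards 0 as the CPM rises. The 15 tested circRNAs with counts of 0 in all libraries of 1 group are not drawn. Among these are the called novel_circ_0025913, novel_circ_0022936 and novel_circ_0030443.

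Most of the called circRNAs were present in both groups and differed by degree. Counts above 0 in all 6 libraries were found for 102 of the 120, of which 44 were higher and 58 lower in HT+EA. Their absolute log2 fold change had a median of 0.89 and ran from 0.26 to 1.83, and 40 of them exceeded 2-fold. The other 18 had a 0 in at least 1 of the 6 libraries, with 10 higher and 8 lower. The share called was 2.4% of the 4250 tested circRNAs with counts in all 6 libraries and 3.06% of the 588 with a 0.

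The called circRNAs named next were picked by their p in HT+EA against NC, a choice that itself favours NC and HT+EA levels lying apart. Where HT and HT+SEA lie beside these levels is therefore a description and no separate evidence. The changes of HT and HT+SEA over NC also reuse the same NC libraries. Among circRNAs higher in HT+EA by degree, novel_circ_0030378 had the smallest p. It had 81, 50.3 and 77.2 CPM in NC and 144, 192 and 179.9 CPM in HT+EA, a log2 fold change of 1.30 ± 0.33 (SE; edgeR, unadjusted p of 0.00154, adjusted p of 0.9997). Its HT+EA libraries lay above all 9 other libraries of the series, as HT held 55.9 to 122 CPM and HT+SEA 88.4 to 104 CPM. Beside NC, the change of HT was 0.37 ± 0.34 (SE) and that of HT+SEA 0.49 ± 0.34 (SE). For novel_circ_0021466 NC held 86.1, 121 and 90.9 CPM and HT+EA 134, 264 and 217 CPM, a log2 fold change of 1.05 ± 0.35 (SE). The HT+SEA libraries of this circRNA, at 141 to 236 CPM, also lay above every NC library. The call ended without HT+EA replicate 2, when edgeR gave an unadjusted p of 0.0539. The counts of novel_circ_0030549 were low, at 7, 6 and 6 in NC and 14, 19 and 16 in HT+EA, with a log2 fold change of 1.23 ± 0.42 (SE). The 6 HT and HT+SEA libraries held 42.1 to 87 CPM of it, all above the NC libraries at 27.3 to 35.4 CPM. All 9 operated libraries thus exceeded the 3 unoperated ones.

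The most abundant of these 6 was novel_circ_0038467, with 998, 1017 and 918 CPM in NC and 1289, 1225 and 1291 CPM in HT+EA. Its log2 fold change was 0.38 ± 0.13 (SE; edgeR, unadjusted p of 0.0106, adjusted p of 0.9997), a small difference in a narrowly measured circRNA, and HT libraries at 1101 to 1175 CPM lay between the groups. For novel_circ_0024562 NC held 86.1, 95.6 and 40.9 CPM and HT+EA 187, 140.1 and 153 CPM, a log2 fold change of 1.11 ± 0.39 (SE). This difference leaned on the low NC replicate 3, without which edgeR gave an unadjusted p of 0.0587. The HT+SEA libraries of novel_circ_0024562, at 99.8 to 191 CPM, lay above every NC library, with a change of 0.99 ± 0.39 (SE) beside NC. HT held 65.2 to 136 CPM of it and overlapped NC, with a change of 0.50 ± 0.40 (SE). In novel_circ_0014184 the groups overlapped, since HT+EA held 203, 159.7 and 63.5 CPM against 55.7, 55.4 and 77.2 CPM in NC. Its log2 fold change of 1.17 ± 0.42 (SE) rested on 2 HT+EA libraries, and without HT+EA replicate 1 the unadjusted edgeR p was 0.0782. The HT and HT+SEA libraries held 50.9 to 99.8 CPM of this circRNA.

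Among circRNAs lower in HT+EA, novel_circ_0036240 had the smallest p of all circRNAs with counts in all 6 libraries. It had 96.2, 106 and 95.4 CPM in NC and 42.8, 32.6 and 26.5 CPM in HT+EA, a log2 fold change of -1.53 ± 0.33 (SE; edgeR, unadjusted p of 0.000454, adjusted p of 0.9997). HT held 48.9 to 68.3 CPM and HT+SEA 49.9 to 63.7 CPM, so that these 6 libraries lay below every NC library and above every HT+EA library. The changes beside NC were -0.72 ± 0.32 (SE) for HT and -0.84 ± 0.32 (SE) for HT+SEA. HT+EA was also the lowest group for novel_circ_0017174, with 32.1, 61.9 and 42.3 CPM against 106, 101 and 168 CPM in NC. The log2 fold change was -1.42 ± 0.35 (SE; edgeR, unadjusted p of 0.00125, adjusted p of 0.9997), and the other operated libraries held 70 to 104 CPM. Both circRNAs passed the unadjusted threshold in all 18 alternative analyses. The third, novel_circ_0021028, varied more in NC, at 40.5, 111 and 127 CPM, and held 10.7, 32.6 and 31.7 CPM in HT+EA. Its log2 fold change was the greatest in size among called circRNAs with counts in all 6 libraries, -1.83 ± 0.54 (SE). On the 6 libraries alone this circRNA was too low to be tested, so its test depended on HT and HT+SEA.

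For novel_circ_0013837 the HT+EA libraries held nearly equal levels of 90.9, 88 and 89.9 CPM, against 172, 141 and 186 CPM in NC. The log2 fold change was -0.89 ± 0.27 (SE), and the HT+EA libraries were the 3 lowest of the series. The abundant novel_circ_0029552 had 2709, 2537 and 2757 CPM in NC and 2268, 2271 and 2016 CPM in HT+EA, a log2 fold change of -0.29 ± 0.09 (SE; edgeR, unadjusted p of 0.0076, adjusted p of 0.9997). Its HT libraries, at 2106 to 2291 CPM, lay as low as those of HT+EA, with a change of -0.27 ± 0.09 (SE) beside NC and of -0.01 ± 0.09 (SE) for HT+EA beside HT. The HT+SEA libraries held 2349 to 2558 CPM, above HT+EA, and overlapped NC. For novel_circ_0019067 NC held 187, 201 and 141 CPM and HT+EA 85.6, 97.8 and 100.5 CPM, a log2 fold change of -0.89 ± 0.29 (SE). HT libraries of this circRNA ran from 88.9 to 143 CPM and HT+SEA libraries from 108 to 171 CPM, so both overlapped NC.

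**Figure D2:**
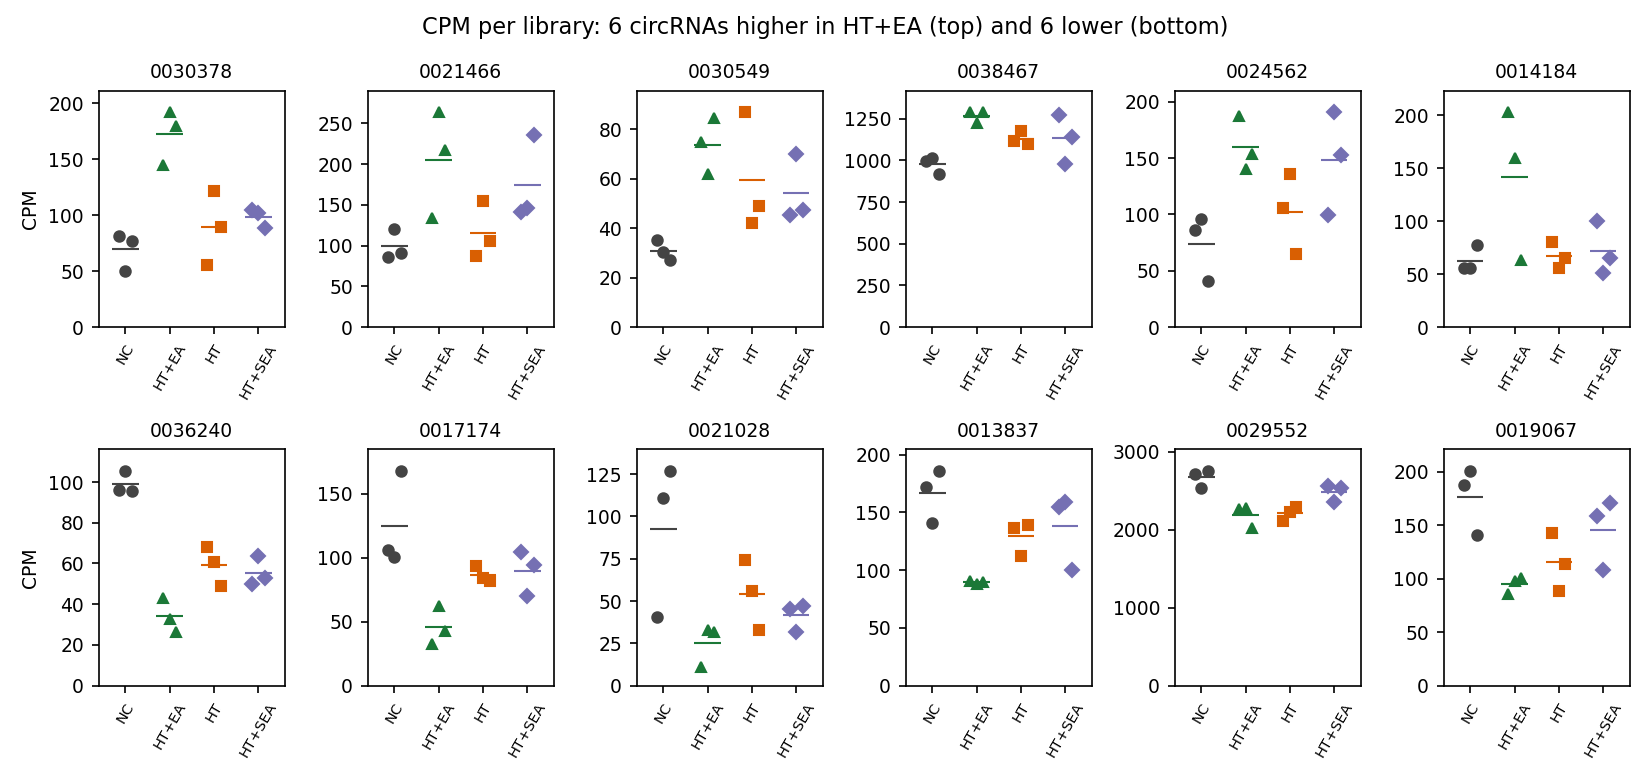
CPM in each of the 12 libraries (points, with the group mean as a line) for the 6 circRNAs higher in HT+EA than in NC and the 6 lower at the smallest unadjusted p, among those with counts in all 6 compared libraries. Each vertical axis starts at 0. The HT+EA points stand apart from the NC points in each panel but that of novel_circ_0014184, and the panel of novel_circ_0036240 places all HT and HT+SEA points between those of NC and HT+EA.

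Other called circRNAs were listed at 0 in some libraries. The table lists values of 0 or at least 2, so a 0 can hide a low count, and no fold is given against a group at 0 throughout. Higher in HT+EA at the smallest p was novel_circ_0025913, with counts of 12, 16 and 22 in HT+EA and 0 in all NC libraries (edgeR, unadjusted p of 0.00436, adjusted p of 0.9997). Of the other operated libraries, 2 of HT and 2 of HT+SEA also listed it, with counts of 5 to 29. For novel_circ_0011147 NC counts were 6, 0 and 10 and HT+EA counts 22, 36 and 19, a log2 fold change of 2.10 ± 0.80 (SE). For novel_circ_0017489 they were 0, 12 and 11 in NC and 18, 34 and 26 in HT+EA, a log2 fold change of 1.61 ± 0.63 (SE). HT+EA lay above NC in every library of these circRNAs, and the last of them lost its call without HT+EA replicate 3 (edgeR, unadjusted p = 0.0583). The change of HT+SEA beside NC was 1.73 ± 0.80 (SE) for novel_circ_0011147 and 1.24 ± 0.64 (SE) for novel_circ_0017489. That of HT was 0.68 ± 0.86 (SE) for the former and 0.54 ± 0.67 (SE) for the latter.

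Lower in HT+EA was novel_circ_0022936, listed at 0 in all 3 HT+EA libraries and with counts of 5, 0 and 15 in NC (edgeR, unadjusted p of 0.00603, adjusted p of 0.9997). All 6 HT and HT+SEA libraries listed it, with counts of 6 to 17, so HT+EA was the 1 group without it. The groups overlapped because NC replicate 2 was also at 0, and limma-voom gave an unadjusted p of 0.235. On the 6 libraries alone its counts were too low to be tested, so the test depended on HT and HT+SEA. For novel_circ_0006766 NC counts were 15, 17 and 17 and HT+EA counts 8, 0 and 5, with a log2 fold change of -1.89 ± 0.73 (SE). For novel_circ_0004902 they were 21, 28 and 40 in NC and 14, 0 and 9 in HT+EA, with a log2 fold change of -1.92 ± 0.73 (SE). This circRNA had 16 to 36 counts in HT and 22 to 58 in HT+SEA, and its call ended without NC replicate 3 (edgeR, unadjusted p = 0.0546).

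Zeros in otherwise well counted circRNAs occurred in both groups. Over the 12 libraries, 305 circRNAs had a 0 in some library although their mean CPM in the other 11 predicted at least 20 counts there. An NC library held 31 to 48 such zeros and an HT+EA library 32 to 40. Of the 303 tested, 34 (11.2%) had NC and HT+EA groups that did not overlap, near the 9.88% of all tested circRNAs, and 5 (1.65%) were called, beside 2.48% of all. The circRNA that DESeq2 called was of this kind. For novel_circ_0030443 the counts were 0, 0 and 222 in NC, 0 in all HT+EA libraries, 138, 171 and 0 in HT, and 181, 0 and 204 in HT+SEA. DESeq2 gave an adjusted p of 0.00045, edgeR an unadjusted p of 0.0343 and limma-voom one of 0.825. Its difference rested on NC replicate 3 alone, without which NC and HT+EA were both at 0. On the 6 libraries alone this circRNA did not pass to the test. The cause of such zeros was not tested.

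Over the whole table, 119 circRNAs (0.543%) were listed in all 3 HT+EA libraries and in no NC library, and 78 (0.356%) in all 3 NC libraries and in no HT+EA library. With all 6 libraries thinned to an equal total the numbers were 104.8 and 97.7, as means of 20 draws. Nearly all were too rare to be tested, since 1 of the 119 and 0 of the 78 passed the filter, and both sets had a median summed count of 11. An HT or HT+SEA library listed 98 of the 119 and 72 of the 78. After novel_circ_0025913, described above, the highest counts in HT+EA alone were those of novel_circ_0016341, at 8, 6 and 12, and of novel_circ_0023320, at 3, 10 and 9. The first was also listed in 4 of the HT and HT+SEA libraries, and the second in 2 HT+SEA libraries and in no HT library. In NC alone the highest were novel_circ_0009581 with 21, 6 and 4 counts, novel_circ_0015723 with 7, 8 and 7, and novel_circ_0016922 with 10, 9 and 3. The last of these was listed in all 6 HT and HT+SEA libraries, with 3 to 7 counts, and in no HT+EA library. Counts of this size carry no test here.

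**Figure D3:**
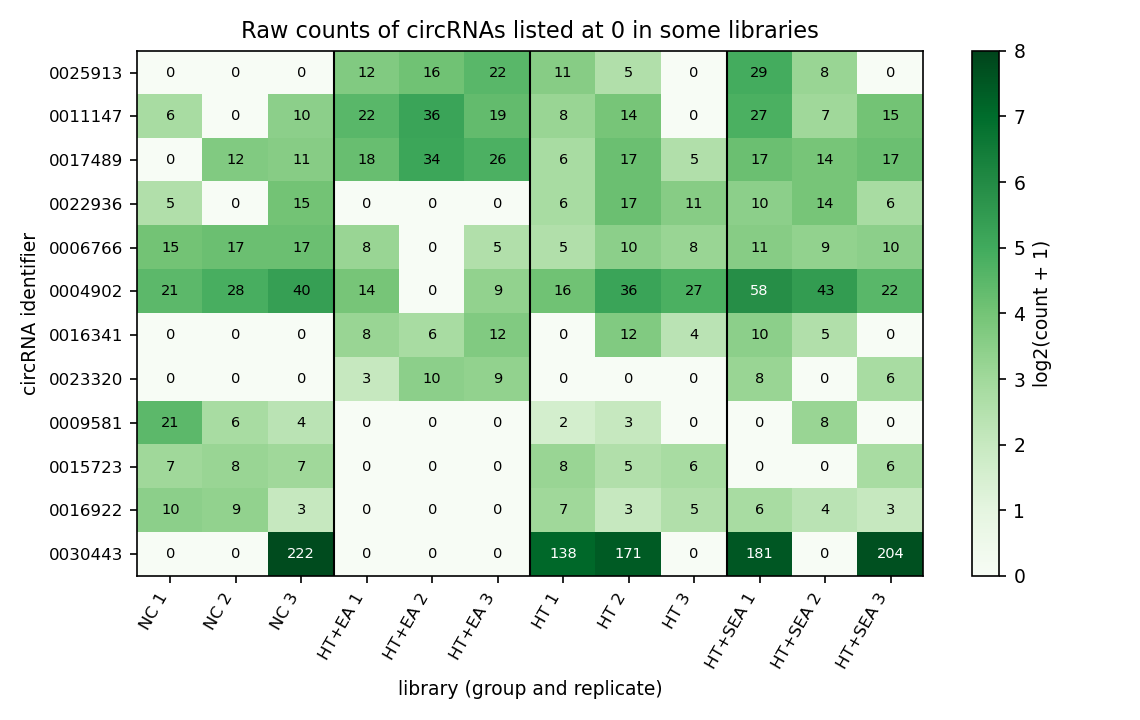
Raw counts of 12 circRNAs (rows) in the 12 libraries (columns, grouped as NC, HT+EA, HT and HT+SEA), shaded by log2(count + 1). The first 6 rows are called circRNAs with a 0 in at least 1 of the 6 compared libraries, the next 5 are circRNAs listed in 1 of the compared groups only, and the last is novel_circ_0030443. Most rows with zeros in NC or HT+EA also hold counts in HT or HT+SEA libraries.

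None of the 5 circRNAs with the most reads was called, and the 95% interval of each included 0. The 10 highest circRNAs of a library took 5.7% to 6.51% of its counts in NC and HT+EA. The highest, novel_circ_0039775, had counts of 4000, 3666 and 4972 in NC and 3895, 6143 and 3647 in HT+EA, or 20430 ± 2073 CPM (SD, n = 3) against 20050 ± 769.6 CPM (SD, n = 3). The log2 fold change was -0.03 ± 0.08 (SE), with a 95% interval of -0.21 to 0.15. For novel_circ_0034471 NC held 8371, 7957 and 12824 CPM and HT+EA 8509, 11307 and 8649.6 CPM, each group with 1 high library. Its log2 fold change was -0.03 ± 0.17 (SE), with a wider interval of -0.40 to 0.33. The levels of novel_circ_0010853 were 6629, 6951 and 7273 CPM in NC and 6530.4, 5819.6 and 7052 CPM in HT+EA, a log2 fold change of -0.10 ± 0.08 (SE) with an interval of -0.28 to 0.07. For novel_circ_0019548 the log2 fold change was 0.04 ± 0.10 (SE), from 5464 ± 465 CPM (SD, n = 3) for NC against 5619 ± 288 CPM (SD, n = 3) for HT+EA. That of novel_circ_0016268 was 0.20 ± 0.18 (SE), with an interval of -0.20 to 0.59. Outside these 5, one of the narrowest intervals belonged to novel_circ_0009645, with 4066, 3765 and 4325 CPM in NC and 3803, 3845 and 3814 CPM in HT+EA. Its log2 fold change was -0.085 ± 0.08 (SE), with an interval of -0.25 to 0.08. These levels are shares of reads, not corrected for the length of the circle.

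As whole profiles the groups did not separate. The Euclidean distance between the log2 CPM profiles of an HT+EA and an NC library was 60 to 71.5 over 9 pairs, and its median was 64.4. Within NC the 3 distances ran from 65.3 to 72.7 and within HT+EA from 61.7 to 66.7. The distances across groups thus overlapped those inside both groups. The pseudo-F, which sets the distance between groups against that within them, was 0.922 (exact permutation test over 20 ways to choose 3 of 6 libraries, p = 0.9, smallest possible p 0.1). For comparison, the median distance to NC was 69.9 for HT and 68.3 for HT+SEA. The difference of these medians was not tested, and the shallowest library of the series, with 134903 counts, was HT replicate 3.

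**Figure D4:**
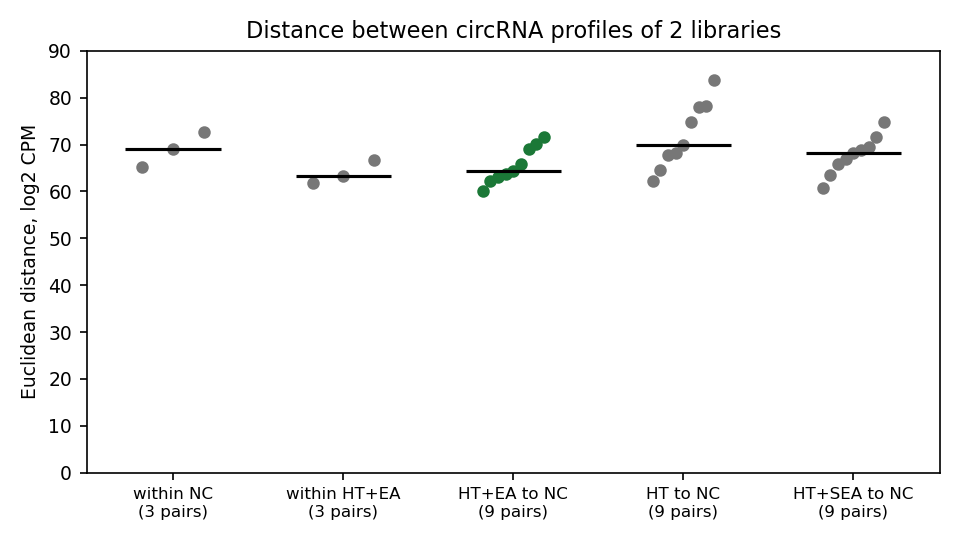
Euclidean distance between the log2 CPM profiles of pairs of libraries over the 4838 tested circRNAs (points, with the median as a line). The 9 distances from HT+EA to NC (green) have a median of 64.4 and overlap the distances within NC and within HT+EA.

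The study put 44 circRNAs into its networks, of which 16 were listed as lowered after surgery, 6 as raised after surgery, 13 as raised by electroacupuncture and 9 as lowered by it. That list was drawn from contrasts that share the NC or the HT+EA libraries. Neither its directions nor its share of calls here is therefore independent evidence. In HT+EA against NC 31 of the 44 were tested and 13 were too low, with mean counts of 2.08 to 5.67. Of those tested 6 were called, 2 higher and 4 lower, a share of 19.4% where the background, not chosen in this way, was 2.48%. When a library was left out, 1 to 7 were called. The median log2 fold change of the 31 was -0.06, beside 0.002 over all tested circRNAs. Those listed as lowered after surgery had a median of -0.53, with 9 of 10 below 0 and 1 called. Those listed as raised after surgery had a median of 0.98, with 4 of 4 above 0 and 1 called. Those listed as raised by electroacupuncture had a median of 0.43 with 1 of 10 called, and those listed as lowered by it a median of -0.60 with 3 of 7 called.

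**Figure D5:**
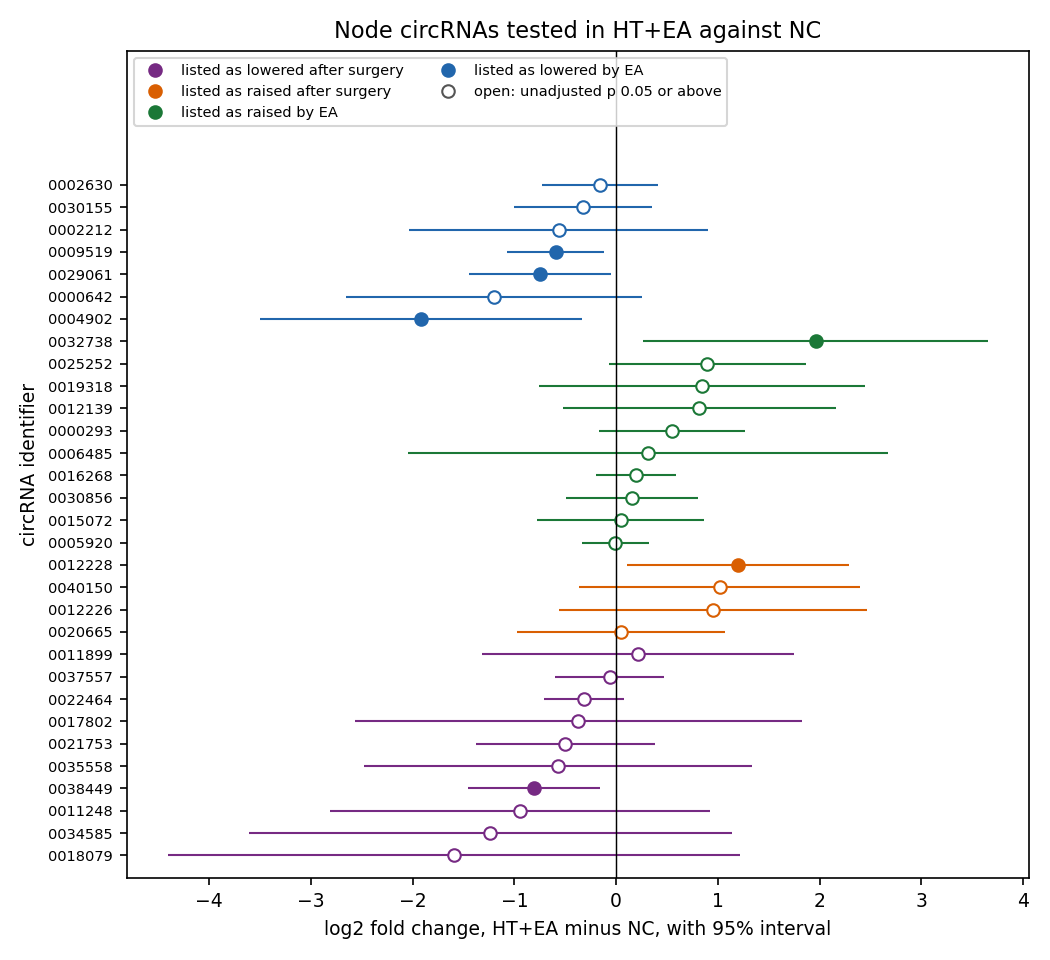
Log2 fold change of HT+EA over NC, with its 95% interval, for the 31 tested network circRNAs, coloured by the direction in which the study listed them. The 6 filled points passed an unadjusted p below 0.05 in edgeR, and the other 25 intervals cross 0.

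Listed as lowered after surgery, novel_circ_0038449 had 213, 131 and 154.5 CPM in NC and 69.5, 121 and 89.9 CPM in HT+EA. HT held 48.9 to 56.2 CPM of it, below every HT+EA library, and HT+SEA 82.5 to 102 CPM. The log2 fold change was -0.81 ± 0.30 (SE; edgeR, unadjusted p of 0.0181, adjusted p of 0.9997) for HT+EA beside NC, -1.66 ± 0.33 (SE) for HT beside NC and 0.86 ± 0.33 (SE) for HT+EA beside HT. The change of HT+SEA beside NC was -0.80 ± 0.30 (SE). The levels of HT+EA and of HT+SEA thus both stood between those of HT and NC. The call of novel_circ_0038449 ended without NC replicate 1 or HT+EA replicate 1 (edgeR, unadjusted p 0.0936 and 0.0742). Listed as raised after surgery, novel_circ_0012228 had 152, 65.4 and 40.9 CPM in NC and 176.5, 199 and 217 CPM in HT+EA, a log2 fold change of 1.20 ± 0.50 (SE). HT held 161.5 to 285.5 CPM, overlapping HT+EA, and the change of HT+EA beside HT was -0.16 ± 0.48 (SE). The HT+SEA libraries held 168, 70 and 41.3 CPM and overlapped NC, with a change beside NC of 0.16 ± 0.53 (SE). The call was lost without NC replicate 2 or 3 and without HT+EA replicate 2 or 3, when the unadjusted edgeR p ran from 0.0618 to 0.124.

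The others that were called came from the lists of circRNAs changed by electroacupuncture. For novel_circ_0032738, listed as raised, counts were 5, 11 and 0 in NC, 23, 28 and 19 in HT+EA and 4, 3 and 2 in HT, with a log2 fold change over NC of 1.96 ± 0.78 (SE). Its HT+SEA counts of 5, 22 and 17 reached both ranges, and the call ended without NC replicate 1 or 3 or HT+EA replicate 1 (edgeR, unadjusted p 0.0509 to 0.0561). Listed as lowered, novel_circ_0009519 had 425, 372 and 549.7 CPM in NC and 294, 306 and 291 CPM in HT+EA, a log2 fold change of -0.60 ± 0.22 (SE). HT held 441 to 579 CPM, so HT+EA lay below both NC and HT, and HT+SEA reached from 318 to 481 CPM. Without NC replicate 3 the unadjusted edgeR p of this circRNA was 0.0861. For novel_circ_0029061 the groups overlapped, with 127, 75.5 and 123 CPM in NC and 85.6, 65.2 and 42.3 CPM in HT+EA, and its log2 fold change of -0.75 ± 0.32 (SE) was called in 8 of 18 alternative analyses. Leaving out NC replicate 1 or 3 or HT+EA replicate 2 or 3 ended that call, with an unadjusted edgeR p of 0.0712 to 0.135. The sixth, novel_circ_0004902, was described above.

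None of the 4 most abundant network circRNAs was called. For novel_circ_0005920 NC held 1615, 1545 and 1481 CPM and HT+EA 1379.9, 1737 and 1497 CPM, with a log2 fold change of -0.01 ± 0.15 (SE) and an interval of -0.33 to 0.32. Its HT libraries held 807 to 1168 CPM, below all 6 of these, and the change of HT beside NC was -0.56 ± 0.15 (SE). For novel_circ_0022464 NC held 1549.6, 1479.7 and 2017 CPM and HT+EA 1096, 1391 and 1555 CPM, a log2 fold change of -0.32 ± 0.18 (SE) with an interval of -0.71 to 0.07, beside -0.49 ± 0.18 (SE) in HT. The log2 fold change of novel_circ_0016268, with 3874 to 5606 CPM in NC and 4733 to 6221 CPM in HT+EA, was 0.20 ± 0.18 (SE), and its interval ran from -0.20 to 0.59. That of novel_circ_0030856 was 0.15 ± 0.30 (SE), and its NC libraries spread from 547 to 1153 CPM.

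Among the network circRNAs listed as lowered after surgery, 4 of the tested ones were at 0 in all HT libraries, and they were chosen after their values were seen. In NC novel_circ_0011248 had 105, 96 and 128 counts, in HT+EA 76, 0 and 84, and in HT+SEA 141, 96 and 128. For novel_circ_0035558 the counts were 38, 48 and 42 in NC, 0, 68 and 36 in HT+EA and 0 throughout HT+SEA. Each of these had counts in 2 HT+EA libraries and a 0 in the third, replicate 2 for the former and replicate 1 for the latter. For novel_circ_0018079 NC had 38, 36 and 26 counts, HT+EA 0, 44 and 0, and HT+SEA 31, 0 and 0. For novel_circ_0017802 NC had 12, 17 and 18, HT+EA 0, 21 and 20, and HT+SEA 23, 0 and 22. Their log2 fold changes over NC ran from -1.59 ± 1.28 (SE) for novel_circ_0018079 to -0.37 ± 0.997 (SE) for novel_circ_0017802, and none of the 4 was called.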

How the data were processed

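Total RNA of the PVN was sequenced from strand-specific libraries on Illumina instruments. The authors deposited 1 table with raw counts of reads per circRNA and library, neither normalised nor pooled, and the total count per library was 134903 to 360524. For alignment and counting the methods name HISAT2 and featureCounts with rat mRatBN7.2, and the submitters' processing notes list the same tools with GRCh38 and hg38. Which program called circRNAs is not given in the sources used here. A further 12 columns of TPM were not used. Every deposited count was 0 or at least 2.

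Groups followed the sample labels. Counts were tested with edgeR 4.0.16 in R 4.3.3 by its quasi-likelihood test (glmQLFit, glmQLFTest), with TMM factors and 1 fit of 12 libraries and 4 groups, the contrast HT+EA minus NC and Benjamini-Hochberg adjustment over all tested circRNAs. The filterByExpr defaults (minimum count 10, minimum total 15) left 4838 circRNAs (22.1%). Tests were two-sided. Standard errors and 95% intervals came from the same fit, and its common biological coefficient of variation was 34.6%. Distances used log2 CPM with a prior count of 2. Pairs of replicates differed by more than sampling noise (chi-square per degree of freedom 2.85 to 4.22). Simulated counts were run through edgeR, with and without a replicate block, and through DESeq2, each on 12 and 6 libraries. On 12 libraries they were also run through edgeR with robust dispersions and limma-voom. Other factors and filters and the fits without 1 library were not simulated. Alternatives used DESeq2 1.42.0, limma 3.58.1, other factors and filters, 6 libraries, a replicate block and leaving out each library.

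The circRNAs named were, by smallest p, 6 higher and 6 lower with counts in all 6 libraries and 3 of each with a 0, then 3 of each listed in 1 group only, the 5 most abundant, the 3 with the narrowest interval, the called and 4 most abundant network circRNAs, and those past adjustment in DESeq2. The comparison, the rule and the network list were chosen with earlier results of these data known. Reads without molecular identifiers are not independent molecules.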

Additional observations from a re-analysis of the deposited data

How the results depend on the processing

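The number of calls depended on the tool and, with the number of circRNAs tested, on the filter. That of 0 circRNAs at an adjusted p below 0.05 changed only through circRNAs with zeros. Against 120 calls of 4838 tested in edgeR at an unadjusted p below 0.05, there were 469 of 21914 with no filter. A mean count of at least 2 gave 246 of 10258. Of the same 4838, DESeq2 called 65 and limma-voom 236. On the 6 libraries only, 3999 were tested, of which DESeq2 called 22 and edgeR 85. Median-ratio factors (121), total count only (119), robust dispersions (114) and leaving out circRNAs at 0 where 20 counts were expected (123) stayed within 1.5 times. Leaving out 1 library gave 132 to 164 calls, which held only 54 to 66 of the 120. Of the 120, DESeq2 shared 58, limma-voom 81 and edgeR on the 6 libraries only 60. Median-ratio factors shared 117 and total count only 114. Without 1 library the split turned with the group left out. It ran from 43 higher and 89 lower without HT+EA replicate 3 to 95 higher and 69 lower without NC replicate 2. The cause was not tested. At the adjusted threshold 13 circRNAs passed with no filter, each with a 0 in at least 2 of the 6 libraries, 1 passed in DESeq2, and 0 to 1 passed when a library was left out. That 1 was novel_circ_0029585 without NC replicate 1 (counts 83, 0 and 0 in NC, 48, 53 and 39 in HT+EA) and novel_circ_0003652 without HT+EA replicate 3 (36, 37 and 26 in NC, 0, 0 and 30 in HT+EA). Non-overlapping circRNAs numbered 980 with a mean count of at least 2, where more were tested, against 478. Called network circRNAs numbered 12 with no filter and 1 to 7 when a library was left out, against 6, with the lowest without NC replicate 3 and 3 without NC replicate 1.

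No pairing by replicate number was visible. The deviations of same-numbered NC and HT+EA libraries correlated at -0.003, -0.026 and -0.088, and those of unlike number at -0.092 to 0.11. This cannot show whether same-numbered libraries were handled together. With a replicate block 96 circRNAs were called in 12 libraries and 37 in the 6 libraries only, and 0 passed adjustment in either fit.

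Calls of named circRNAs ended in 23 cases when a library was left out, 8 in DESeq2 and 7 with the replicate block on the 6 libraries only, 5 in limma-voom and 1 to 3 in each other alternative but median-ratio factors, total count only and the setting without circRNAs at 0. Signs that changed were those of log2 fold changes near 0 that were not called. That of novel_circ_0005920 was 0.00 with total count only and in DESeq2 and 0.01 with no filter, a mean count of at least 2, limma-voom or without circRNAs at 0, and -0.11 to 0.06 without 1 library. For novel_circ_0034471 it was 0.01 in limma-voom and -0.19 to 0.21 without 1 library. Leaving out 1 library gave -0.07 to 0.04 for novel_circ_0039775 and -0.08 to 0.47 for novel_circ_0030856. Named circRNAs without a call in the main fit passed the unadjusted threshold in some alternatives. These were novel_circ_0010853 without HT+EA replicate 3 (edgeR, unadjusted p = 0.0458) and novel_circ_0016268 with no filter (edgeR, unadjusted p = 0.0375). Low counts limit what can be seen, since 31.1% of tested circRNAs had an interval within 2-fold.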
